A study of Mus musculus with 6 samples.

Results

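Matrix metalloproteinases (MMPs), ADAMTS proteinases, ADAMTS-like proteins and tissue inhibitors of metalloproteinases (TIMPs) were compared between HK-2 cells that overexpressed USAG-1 and control HK-2 cells. With earlier results of these data known, members were chosen by a rule on the gene symbol. The symbols were MMP, ADAMTS or ADAMTSL followed by a number, or TIMP1, TIMP2, TIMP3 and TIMP4. This gave 47 of the 39234 genes in the deposited table, of which 20 were MMP, 18 ADAMTS, 5 ADAMTSL and 4 TIMP genes. HK-2 is an immortalised cell line from human proximal tubule epithelium, and RNA was sequenced from 3 control samples and 3 samples with overexpression of USAG-1. USAG-1, encoded by SOSTDC1, is a secreted BMP antagonist that also modulates Wnt signalling. The labels give wild type as the genotype of all 6 samples and do not say what the controls received, while the study's methods describe the overexpression in these cells as transient and from a plasmid. The sample labels give mouse as the species, but every gene identifier in the table is of a human gene. The study's methods mention 3 biological replicates per group for most experiments, but do not say so of the sequencing. Nothing in the labels says that the 3 samples of a group came from separate cultures. The p-values thus measure the spread between these samples, which may be technical. The control libraries held 41236194, 48699471 and 44611384 counts on genes, and the USAG-1-overexpressing libraries 45448720, 43837891 and 42782931. Levels are given as CPM, which are counts scaled to library size with TMM factors, and gene positions as in the deposited table, for which the submitters' processing notes name hg38. Transcript lengths were not used here, so levels are compared between samples, and the gene with the highest CPM of a list need not have the most transcripts.

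MMPs are zinc-dependent endopeptidases that cut collagens, other matrix proteins and cell-surface proteins, and most are made as proenzymes that must lose a prodomain. ADAMTS enzymes are secreted relatives with thrombospondin repeats that cleave proteoglycans, procollagens and other matrix glycoproteins, whereas ADAMTS-like proteins resemble their ancillary domains and have no protease domain. TIMPs bind the active site of these enzymes, and in the kidney the balance of proteinases and inhibitors bears on the turnover of tubular basement membrane and on fibrosis after injury.

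SOSTDC1 (ENSG00000171243; chromosome 7, 16461481 to 16530580) was at 1.89, 1.62 and 1.41 CPM in the control libraries and at 110.5, 89.5 and 103 CPM in the USAG-1-overexpressing libraries, so the overexpressed gene followed the labels in every library. Of 9 kidney epithelial markers tested, the highest CPM was that of VIM (ENSG00000026025), an intermediate filament gene of cultured tubular cells, at 1865, 1784 and 2234 CPM in control and 1888, 2001 and 1972 CPM in USAG-1-overexpressing libraries. Of these 9, 1 was called higher and 1 lower, beside 8.95% and 6.91% of all 18188 genes tested. Without control replicate 3 the numbers were 6 and 1, beside 2985 genes called higher and 2106 lower of all 18866 tested. They were 1 and 0 without control replicate 1, and 0 and 0 without control replicate 2 or USAG-1 overexpression replicate 1, 2 or 3. With any library but control replicate 3 left out, 5.98% to 10.2% of all genes tested were called in either direction. PAX8 (ENSG00000125618), a renal transcription factor gene, was at 379.9, 365 and 379.9 CPM in control and at 449, 455 and 441 CPM in USAG-1-overexpressing libraries. Its groups were apart and it was called higher (log2 fold change 0.26), but not without control replicate 2 (0.24) or USAG-1 overexpression replicate 1 (0.26), 2 (0.25) or 3 (0.27). CDH6 (ENSG00000113361), a cadherin gene of the proximal tubule, was at 224, 228 and 168 CPM in control and at 154, 156 and 141 CPM in USAG-1-overexpressing libraries. It was called lower (log2 fold change -0.46), but not without control replicate 1 (-0.40) or 2 (-0.39), nor when USAG-1 overexpression replicate 1 (-0.48), 2 (-0.49) or 3 (-0.42) was left out. The CDH6 call was also lost with library sizes alone (-0.45) and without the filter on low counts (-0.46). Markers of the mature proximal tubule were mostly at or near 0. LRP2, which encodes the endocytic receptor megalin, was listed at 0 in all 6 libraries, and GGT1 (ENSG00000100031), a brush border enzyme gene, made up 96.9% of the summed level of the 10 proximal tubule markers in the table. GGT1 was at 117, 112 and 85.1 CPM in control and at 164, 137 and 158 CPM in USAG-1-overexpressing libraries and was called higher (log2 fold change 0.55, adjusted p = 0.0208, edgeR quasi-likelihood test after Benjamini-Hochberg adjustment). That call was lost without USAG-1 overexpression replicate 1 (0.50) or 3 (0.53).

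Among the 47 members, 31 passed the filter on low counts and were tested, and 8 were called different at an adjusted p under 0.05 (edgeR quasi-likelihood test after Benjamini-Hochberg adjustment). Of all 18188 genes tested, 15.9% were called. USAG-1-overexpressing cells had higher levels of MMP24, ADAMTS1, ADAMTS3, ADAMTS9, ADAMTS15, ADAMTS16 and TIMP2 and a lower level of MMP7. Thus 7 of 31 members were called higher, against 8.95% of all genes tested, and 1 of 31 was called lower, against 6.91%. The 3 samples of each group did not overlap in 19 of the 31 members, including all 8 that were called, and in 37.6% of all genes tested. The median log2 fold change was -0.02 over the 31 members and -0.02 over all genes tested, with 15 members positive and 16 negative. By family, the genes called were 5 of 13 ADAMTS, 2 of 13 MMP, 1 of 2 TIMP and 0 of 3 ADAMTSL genes tested. For the ADAMTSL genes the unadjusted p was under 0.05 in 0 of 3, and DESeq2's Wald test and limma-voom also called 0. Single libraries moved the count of members called. It was 5 without control replicate 1, without control replicate 2 or without any 1 of the 3 USAG-1-overexpressing libraries, where 10.2, 8.74, 6.92, 5.98 and 7.09% of all genes tested were called in that order. Without control replicate 3 it was 10, beside 27.0% of all genes tested. Each of the former left 3 ADAMTS genes and 1 MMP gene called, and the latter 6 ADAMTS and 2 MMP genes. Whether the share called differed between the families was not tested.

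**Figure D1:**
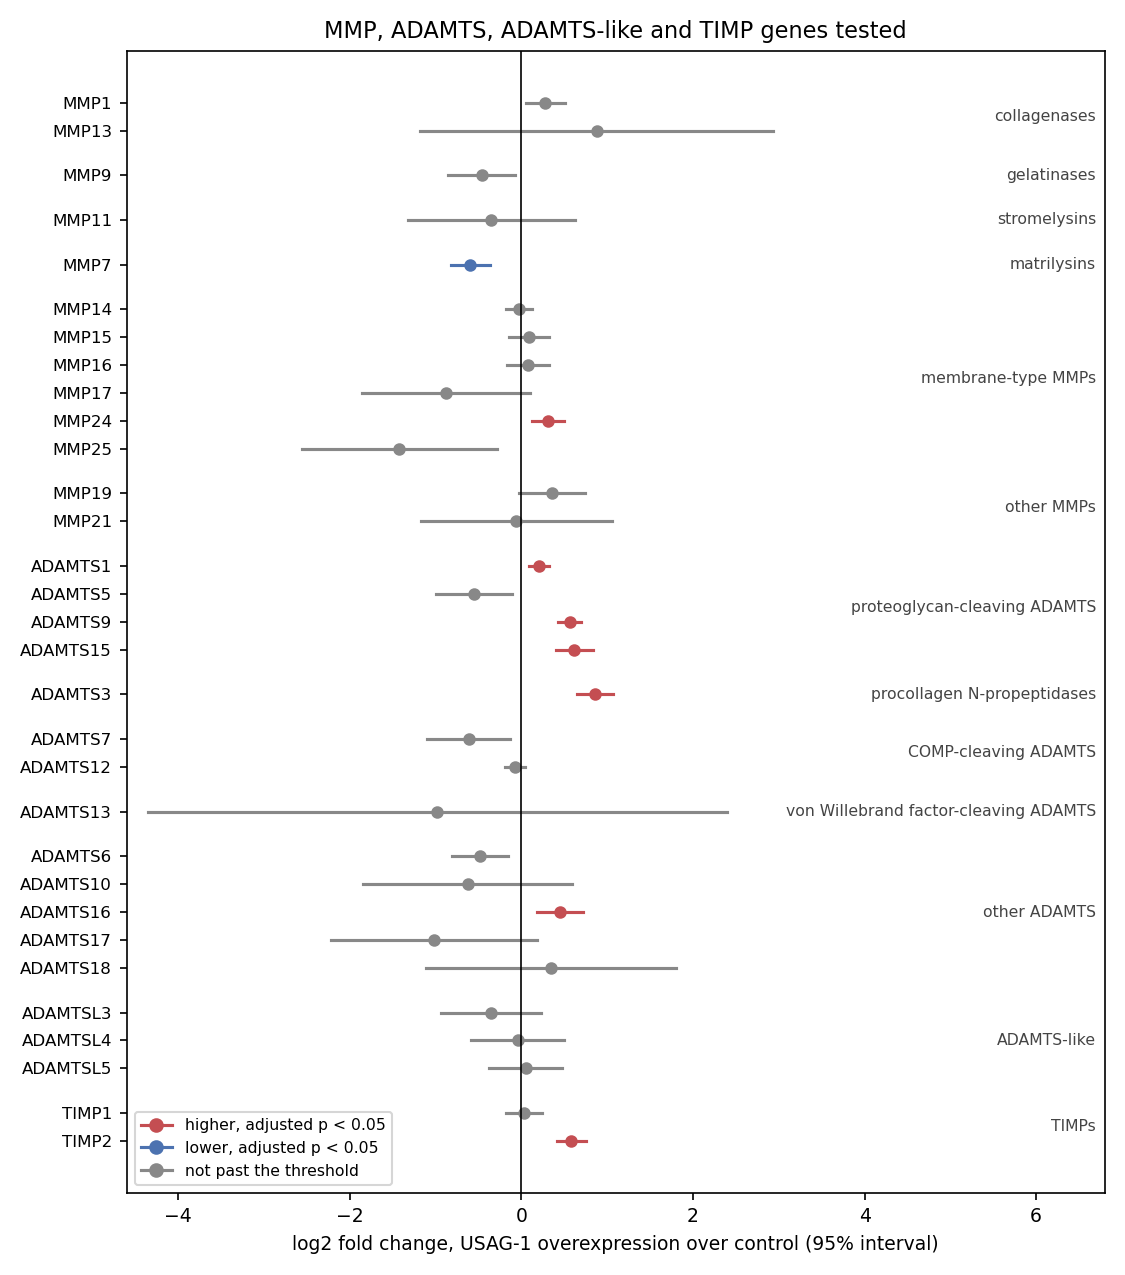
Log2 fold change of USAG-1 overexpression over control for the 31 members tested, with 95% intervals from edgeR's quasi-likelihood fit (horizontal axis) and genes grouped by role (vertical axis). Red marks the 7 genes called higher, blue the 1 called lower and grey the 23 past no threshold, with ADAMTS3 at 0.86 and MMP7 at -0.60.

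Proteoglycan-cleaving ADAMTS enzymes cut versican and aggrecan, and 3 of the 4 tested were called higher, against 8.95% of all genes tested. Only 2 were called when low counts were not filtered or when any 1 library but control replicate 3 was left out, each time through the loss of ADAMTS1. ADAMTS9 (ENSG00000163638; chromosome 3, 64515654 to 64688000), which also acts in pericellular versican turnover, was at 63.9, 64.1 and 62.5 CPM in control and at 95.1, 97.3 and 89.0 CPM in USAG-1-overexpressing libraries. The control libraries were close to each other, and every USAG-1-overexpressing library was above all of them. The means were 63.5 ± 0.868 CPM (SD, n = 3) and 93.8 ± 4.31 CPM (SD, n = 3), a 1.48-fold rise (log2 fold change 0.56 with a standard error of 0.06, adjusted p = 0.00109, edgeR quasi-likelihood test after Benjamini-Hochberg adjustment). ADAMTS15 (ENSG00000166106; chromosome 11, 130448645 to 130476645), a versican- and aggrecan-cleaving member, was at 18.4, 19.2 and 21.6 CPM in control and at 29.2, 33.2 and 28.5 CPM in USAG-1-overexpressing libraries. Here too the groups did not overlap, and the gene rose 1.53-fold (log2 fold change 0.62 with a standard error of 0.10, adjusted p = 0.00473, edgeR quasi-likelihood test after Benjamini-Hochberg adjustment). Both genes were called in all 15 alternative analyses.

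ADAMTS1 (ENSG00000154734; chromosome 21, 26835755 to 26845409), a versican-cleaving enzyme with anti-angiogenic activity, had 9368, 11091 and 10033 counts in control and 11948, 11433 and 11620 counts in USAG-1-overexpressing libraries. On the CPM scale these were 224, 225 and 235 in control and 260.2, 262 and 269 in USAG-1-overexpressing libraries, so all 3 libraries of the overexpressing group lay above all 3 controls by a small margin. The rise was 15.6% (log2 fold change 0.21 with a standard error of 0.05, adjusted p = 0.0294, edgeR quasi-likelihood test after Benjamini-Hochberg adjustment). With control replicate 1, control replicate 2 or USAG-1 overexpression replicate 1, 2 or 3 left out, the log2 fold change was 0.20, 0.20, 0.22, 0.22 and 0.20 in that order and the gene was no longer called (adjusted p between 0.0916 and 0.123, edgeR's quasi-likelihood test). It was also not called without the filter on low counts (0.21). Over all 15 alternatives the adjusted p ranged from 0.00118 to 0.123 by edgeR, DESeq2 or limma-voom.

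ADAMTS5 (ENSG00000154736; chromosome 21, 26917922 to 26967088), the other main aggrecan-cleaving enzyme of cartilage beside ADAMTS4, lies 72512 bases from ADAMTS1 on chromosome 21. It was at 2.78, 2.98 and 2.77 CPM in control and at 1.81, 2.29 and 1.71 CPM in USAG-1-overexpressing libraries. All libraries with overexpression were below the controls, but the difference did not pass the threshold (log2 fold change -0.55, 95% interval -0.99 to -0.11, adjusted p = 0.0921, edgeR quasi-likelihood test after Benjamini-Hochberg adjustment). The 3 other proteoglycan-cleaving members were not tested. ADAMTS4 was listed at 0 in 4 libraries with at most 4 counts in another, and ADAMTS8 and ADAMTS20 were listed at 0 in all 6. ADAMTS8 lies 20035 bases from ADAMTS15 on chromosome 11.

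The procollagen N-propeptidases remove the amino-terminal propeptide of fibrillar collagens, and ADAMTS3 also activates the lymphatic growth factor VEGF-C. ADAMTS3 (ENSG00000156140; chromosome 4, 72280969 to 72569221) had 2970, 3456 and 2424 counts in control and 5738, 5188 and 4975 counts in USAG-1-overexpressing libraries, or 71.1, 70.0 and 56.8 CPM against 125, 119 and 115 CPM. Control replicate 3 was the lowest of the controls, and the lowest library with overexpression was well above the highest control. ADAMTS3 rose 1.81-fold, from 66.0 ± 7.95 CPM (SD, n = 3) to 119.7 ± 4.91 CPM (SD, n = 3), which was the largest change among the 8 members called (log2 fold change 0.86 with a standard error of 0.09, adjusted p = 0.00113, edgeR quasi-likelihood test after Benjamini-Hochberg adjustment). Across the 15 alternatives, all of which called it, the log2 fold change was between 0.77 and 0.92. The other members of this role, ADAMTS2 and ADAMTS14, had at most 8 counts in any library and were not tested.

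ADAMTS16 (ENSG00000145536; chromosome 5, 5140330 to 5320304), a fibronectin-cleaving member expressed in kidney, was at 7.62, 9.16 and 8.28 CPM in control and at 11.9, 11.6 and 10.8 CPM in USAG-1-overexpressing libraries. The groups did not overlap, and the gene rose 1.37-fold (log2 fold change 0.45 with a standard error of 0.12, adjusted p = 0.0353, edgeR quasi-likelihood test after Benjamini-Hochberg adjustment). Its log2 fold change without control replicate 1 or 2 or USAG-1 overexpression replicate 1, 2 or 3 was 0.39, 0.52, 0.42, 0.44 and 0.50 in that order, with the call lost each time (adjusted p between 0.0521 and 0.126, edgeR's quasi-likelihood test), and it was 0.45 and not called without the filter on low counts. Over the 15 alternatives the adjusted p lay between 0.0214 and 0.126 by edgeR, DESeq2 or limma-voom.

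Other ADAMTS members with at least 1 CPM on average had lower values under USAG-1 overexpression that did not pass the threshold. ADAMTS6 (ENSG00000049192; chromosome 5, 65148738 to 65481920), a regulator of the extracellular matrix around microfibrils, was at 7.59, 9.24 and 8.93 CPM in control and at 5.51, 6.87 and 6.12 CPM in USAG-1-overexpressing libraries (log2 fold change -0.48, adjusted p = 0.0573, edgeR quasi-likelihood test after Benjamini-Hochberg adjustment). It was called lower by DESeq2 with its own scaling, filter and Wald test (-0.48) and among genes with at least 10 counts in every library (-0.49). The COMP-cleaving enzymes ADAMTS7 and ADAMTS12 degrade cartilage oligomeric matrix protein. ADAMTS7 (ENSG00000136378; chromosome 15, 78759206 to 78811464) was at 4.31, 4.56 and 3.05 CPM in control and at 2.94, 2.24 and 2.60 CPM in USAG-1-overexpressing libraries, below every control by at least a small margin (log2 fold change -0.62, adjusted p = 0.0868, edgeR quasi-likelihood test after Benjamini-Hochberg adjustment). Without control replicate 3, the lowest of the controls, ADAMTS7 was called lower (-0.77). Its counting is uncertain, since it overlaps MORF4L1 and has pseudogene copies in the table. ADAMTS12 (ENSG00000151388; chromosome 5, 33523535 to 33891990) was at 162, 165 and 168 CPM in control and at 156, 161 and 154 CPM in USAG-1-overexpressing libraries. The groups were apart by a small margin, and for ADAMTS12 the 95% interval of the log2 fold change was -0.19 to 0.04. ADAMTS13, the von Willebrand factor-cleaving enzyme, had 18, 24 and 0 counts in control and 21, 0 and 0 counts in USAG-1-overexpressing libraries. Of all genes deposited, 746 were likewise at 0 in at least 1 library and at 20 or more counts in another, so each 0 is given here as listed.

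Summed over all 18 ADAMTS genes, the level was 565, 571 and 569 CPM in control and 689, 697 and 678 CPM in USAG-1-overexpressing libraries. The groups were apart, and the ratio of the means was 1.21 after TMM scaling and above 1 with the other 2 scalings as well. ADAMTS1 alone held 39.2% of this sum, so it mostly follows the members with many reads. For the 5 ADAMTSL genes the sum was 11.6, 9.81 and 7.95 CPM in control and 9.28, 9.14 and 9.85 CPM in USAG-1-overexpressing libraries, and the groups overlapped. ADAMTSL genes encode matrix proteins that bind fibrillin microfibrils, among other partners. ADAMTSL3 (ENSG00000156218) was at 2.68, 1.76 and 1.62 CPM in control and 1.72, 1.53 and 1.48 CPM in USAG-1-overexpressing libraries. ADAMTSL4 (ENSG00000143382) was at 3.09, 1.78 and 2.20 CPM in control and 2.35, 2.34 and 2.18 CPM in USAG-1-overexpressing libraries. ADAMTSL5 (ENSG00000185761) was at 5.65, 6.26 and 4.13 CPM in control and 5.21, 5.27 and 6.19 CPM in USAG-1-overexpressing libraries. In all 3 genes the groups overlapped. ADAMTSL1 and ADAMTSL2 were not tested.

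**Figure D2:**
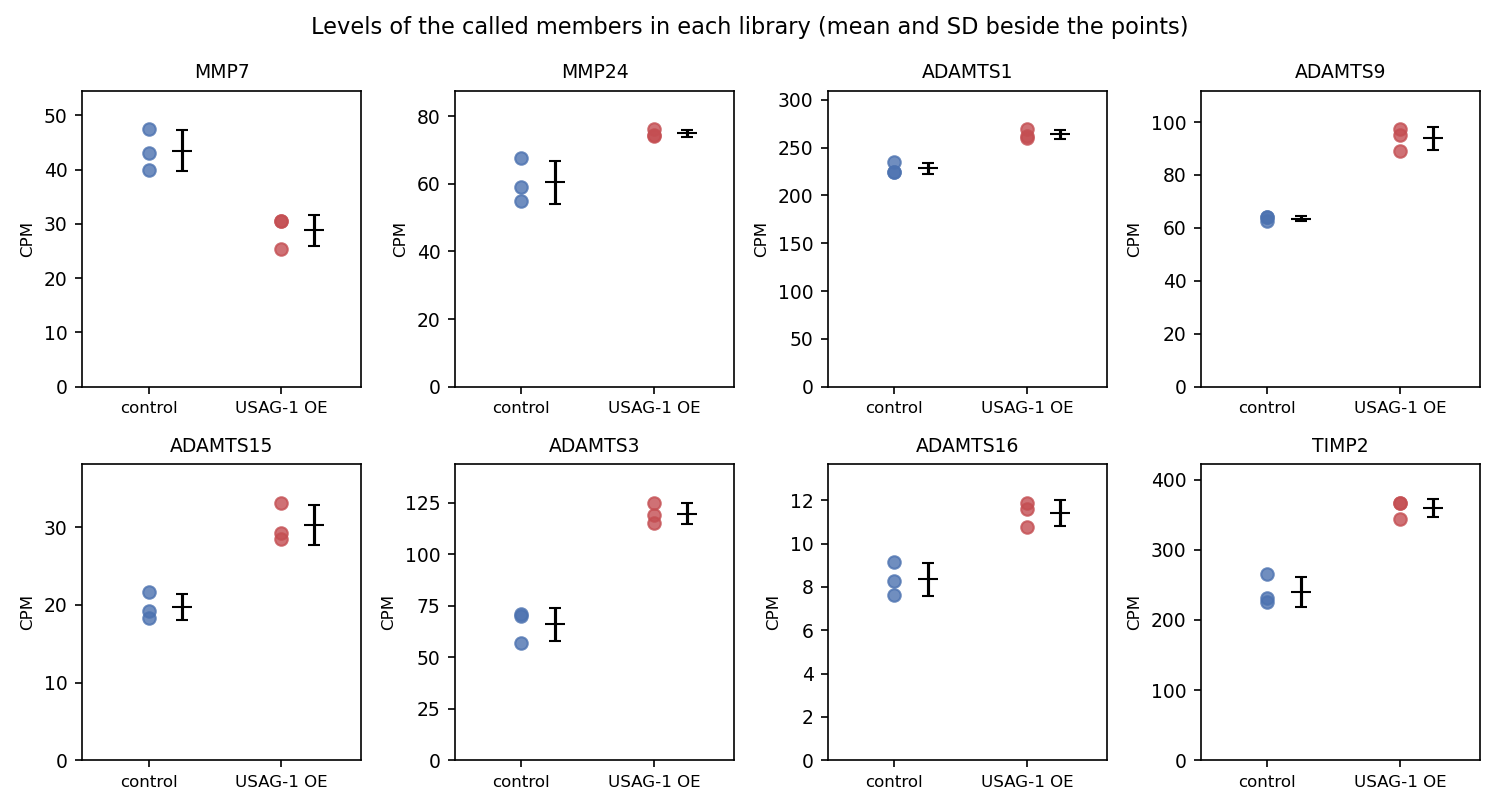
Level in CPM (vertical axis, from 0) of each of the 8 called members in the 3 control (blue) and 3 USAG-1-overexpressing (red) libraries, 1 point per library, with the mean and SD (n = 3) drawn beside the points. In every panel the 2 groups are apart, narrowly for ADAMTS1, with 235 CPM in the highest control and 260.2 CPM in the lowest overexpressing library.

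Among the inhibitors, TIMP2 rose. TIMP2 (ENSG00000035862; chromosome 17, 78852977 to 78922401), which inhibits many MMPs and, bound to MMP14, takes part in the activation of proMMP2, had 9634, 11113 and 11290 counts in control and 16857, 15989 and 14866 counts in USAG-1-overexpressing libraries. Its level was 231, 225 and 265 CPM in control and 367, 366 and 344 CPM in USAG-1-overexpressing libraries. Control replicate 3 was the highest control and still lay below all libraries with overexpression. The rise from 240.2 ± 21.4 CPM (SD, n = 3) to 359 ± 12.8 CPM (SD, n = 3) amounted to 49.5% (log2 fold change 0.58 with a standard error of 0.07, adjusted p = 0.00210, edgeR quasi-likelihood test after Benjamini-Hochberg adjustment), and all 15 alternatives called it. CEP295NL, on the same strand inside TIMP2, had 255 counts over all libraries against 79749 for TIMP2. TIMP1 (ENSG00000102265; chromosome X, 47582408 to 47586789), an inhibitor that is induced in injured and fibrotic kidney, was at 135, 129 and 165 CPM in control and at 143, 144 and 152 CPM in USAG-1-overexpressing libraries. The groups overlapped because of control replicate 3, the highest library of all (log2 fold change 0.03, 95% interval -0.18 to 0.25, adjusted p = 0.852, edgeR quasi-likelihood test after Benjamini-Hochberg adjustment). Without that library TIMP1 was called higher as well (0.15). TIMP3 was listed at 0 in 4 libraries with 3 and 4 counts in the others, and TIMP4 at 0 in 5 libraries with 4 counts in the other. A count of 0 allows a level of up to 0.0608 to 0.0719 CPM, the level of 3 counts, for counting error only. Over the 4 TIMP genes the summed level was 366, 354 and 429.5 CPM in control and 510.0, 510.1 and 496 CPM in USAG-1-overexpressing libraries, of which TIMP2 held 67.4%.

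MMP7 was the only member called lower. MMP7 (ENSG00000137673; chromosome 11, 102520508 to 102530750), or matrilysin, is a small epithelial MMP that is induced in injured tubules and is a known target of Wnt signalling. It had 1799, 2341 and 1702 counts in control and 1400, 1109 and 1314 counts in USAG-1-overexpressing libraries, which is 43.1, 47.4 and 39.9 CPM against 30.5, 25.4 and 30.4 CPM. Each library with overexpression was below each control, and USAG-1 overexpression replicate 2 was the lowest. The level fell from 43.5 ± 3.78 CPM (SD, n = 3) to 28.8 ± 2.93 CPM (SD, n = 3), a log2 fold change of -0.60 (with a standard error of 0.10, adjusted p = 0.00606, edgeR quasi-likelihood test after Benjamini-Hochberg adjustment). All 15 alternatives called it, with log2 fold changes from -0.65 to -0.51.

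MMP7 lies first among 8 neighbouring MMP genes of the table on chromosome 11 between 102520508 and 102955732, of which 3 were tested. MMP1 (ENSG00000196611; chromosome 11, 102789401 to 102798160), the interstitial collagenase among them, was at 13.9, 13.0 and 14.3 CPM in control and at 15.7, 15.9 and 18.3 CPM in USAG-1-overexpressing libraries. Its groups did not overlap, with the higher values under overexpression, opposite to MMP7, but it did not pass the threshold (log2 fold change 0.28, adjusted p = 0.0999, edgeR quasi-likelihood test after Benjamini-Hochberg adjustment). MMP13, another collagenase, had 23, 15 and 0 counts in control and 30, 25 and 15 counts in USAG-1-overexpressing libraries. Its interval of -1.18 to 2.94 on the log2 scale spans both directions. The other 5 of these 8 genes were not tested, and they were the collagenase gene MMP8, the stromelysin genes MMP3 and MMP10, the enamel proteinase gene MMP20 and MMP27. Their highest count was 17, for MMP3 in control replicate 1, whereas MMP27 was listed at 0 in all libraries.

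Membrane-type MMPs act at the cell surface, and all 6 were tested. MMP14 (ENSG00000157227; chromosome 14, 22836560 to 22849041), a pericellular collagenase that activates proMMP2, was at 221, 225 and 253 CPM in control and at 232, 231 and 225 CPM in USAG-1-overexpressing libraries. The groups overlapped, and the 95% interval of its log2 fold change was -0.17 to 0.13 around -0.02. MMP15 (ENSG00000102996) was at 21.7, 19.5 and 20.8 CPM in control and 19.4, 24.3 and 22.5 CPM in USAG-1-overexpressing libraries. MMP16 (ENSG00000156103) was at 18.6, 18.6 and 14.9 CPM in control and 19.3, 18.0 and 17.7 CPM in USAG-1-overexpressing libraries. In these relatives of MMP14 the groups overlapped as well. The partner of MMP14 in proMMP2 activation, TIMP2, rose, while MMP2 itself, a gelatinase, had 4 counts in USAG-1 overexpression replicates 1 and 2 and was listed at 0 in the other libraries.

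MMP24 (ENSG00000125966; chromosome 20, 35226690 to 35276998), a membrane-type MMP that cleaves N-cadherin, was at 54.9, 58.9 and 67.5 CPM in control and at 74.6, 76.2 and 74.1 CPM in USAG-1-overexpressing libraries. The values under overexpression were close together and above the highest control, and the rise was 1.24-fold (log2 fold change 0.31 with a standard error of 0.08, adjusted p = 0.0361, edgeR quasi-likelihood test after Benjamini-Hochberg adjustment). Leaving out control replicate 1 or 2 or USAG-1 overexpression replicate 1, 2 or 3 gave 0.25, 0.29, 0.32, 0.30 and 0.32 in that order and ended the call (adjusted p between 0.1003 and 0.133, edgeR's quasi-likelihood test), as did testing without the filter on low counts (0.31). The adjusted p over its 15 alternatives ranged from 4.28e-04 to 0.133 by edgeR, DESeq2 or limma-voom. The whole gene lies within MMP24OS (ENSG00000126005), annotated on the opposite strand, and the 2 genes moved in opposite directions. MMP24OS was at 14.4, 11.7 and 11.5 CPM in control and at 5.86, 6.50 and 5.31 CPM in USAG-1-overexpressing libraries and fell (log2 fold change -1.09, adjusted p = 0.00236, edgeR quasi-likelihood test after Benjamini-Hochberg adjustment). The labels describe removal of the second strand with UDG, but the strand setting of the counting is not given in the sources used here, so the counts of both genes are uncertain. Whether reads of one were counted for the other was not tested.

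MMP9 and MMP25 are proteinases of leukocytes, MMP9 as the gelatinase stored in neutrophil granules and MMP25 as the membrane-anchored leukolysin of neutrophils, and MMP9 is also made by epithelial cells. MMP25 (ENSG00000008516; chromosome 16, 3046062 to 3060726) had 235, 256 and 409 counts in control and 37, 131 and 165 counts in USAG-1-overexpressing libraries, or 5.63, 5.19 and 9.59 CPM against 0.806, 3.00 and 3.82 CPM. Control replicate 3 was the highest and USAG-1 overexpression replicate 1 the lowest, and although the groups did not overlap the difference was not called (log2 fold change -1.42, 95% interval -2.55 to -0.29, adjusted p = 0.0910, edgeR quasi-likelihood test after Benjamini-Hochberg adjustment). MMP9 (ENSG00000100985; chromosome 20, 46008908 to 46016561) was at 7.26, 7.42 and 8.47 CPM in control and at 4.40, 6.07 and 6.35 CPM in USAG-1-overexpressing libraries. The same libraries were highest and lowest, without overlap of the groups and without a call (log2 fold change -0.46, adjusted p = 0.108, edgeR quasi-likelihood test after Benjamini-Hochberg adjustment). MMP25 overlaps MMP25-AS1 (ENSG00000261971) on the opposite strand and MMP9 overlaps SLC12A5-AS1, so their counting is uncertain. MMP25-AS1 was at 5.99, 5.57 and 6.36 CPM in control and at 4.77, 7.17 and 5.61 CPM in USAG-1-overexpressing libraries, where the groups overlapped.

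Leukocyte markers were present in these libraries, although HK-2 is an epithelial line, and differed between them. All 12 T cell and NK cell markers were tested and all 12 were called lower, against 6.91% of all genes tested. Without USAG-1 overexpression replicate 2, 11 were called lower, beside 5.98% of all genes tested called in either direction. Among genes with at least 10 counts in every library, 8 of the markers were tested and 8 called lower. The summed level of the 12 was 78.7, 80.6 and 98.9 CPM in control and 7.91, 5.56 and 6.88 CPM in USAG-1-overexpressing libraries. The highest CPM was that of GNLY (ENSG00000115523), the cytotoxic granule protein granulysin, at 22.3, 23.3 and 29.0 CPM in control and 0.457, 1.37 and 1.85 CPM in USAG-1-overexpressing libraries. None of the 12 was at 0 in all libraries, though CD3D was listed at 0 in USAG-1 overexpression replicate 1 and CD2 in replicate 2. For 9 neutrophil markers the sum was 28.1, 19.1 and 112 CPM in control and 14.5, 70.4 and 65.6 CPM in USAG-1-overexpressing libraries, so that control replicate 3 and USAG-1 overexpression replicates 2 and 3 stood above the other 3 libraries. The highest CPM among them was that of S100A9 (ENSG00000163220), at 13.7, 9.73 and 47.9 CPM in control and 8.08, 28.5 and 33.2 CPM in USAG-1-overexpressing libraries. Of the 7 neutrophil markers tested, 0 were called by edgeR's quasi-likelihood test, 0 had an unadjusted p under 0.05, and DESeq2's Wald test and limma-voom called 0. CSF3R, S100A8, FCGR3B and CXCR2, like S100A9, were higher in control replicate 3 and USAG-1 overexpression replicates 2 and 3 than in the other libraries. LTF and CAMP did not follow that order. LTF had 50, 45 and 12 counts in control and 32, 0 and 42 counts in USAG-1-overexpressing libraries. CAMP had 26, 14 and 8 counts in control and 0, 0 and 25 counts with overexpression. The granule genes MPO and ELANE, which mark neutrophil precursors, were not tested and were listed at 0 in libraries of both groups. Within each group, MMP25 and MMP9 were highest in a library with a high neutrophil sum, and both were lower in the group with the low T cell and NK cell sum. Between the groups the order differed from that of the neutrophil sum. Control replicates 1 and 2, with the lower sums, had MMP25 at 5.63 and 5.19 CPM and MMP9 at 7.26 and 7.42 CPM. USAG-1 overexpression replicates 2 and 3, with the higher sums, had MMP25 at 3.00 and 3.82 CPM and MMP9 at 6.07 and 6.35 CPM. The part of leukocyte RNA in the values of MMP9 and MMP25 was not tested. In such bulk samples fewer cells of a type and less RNA per cell cannot be told apart.

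**Figure D3:**
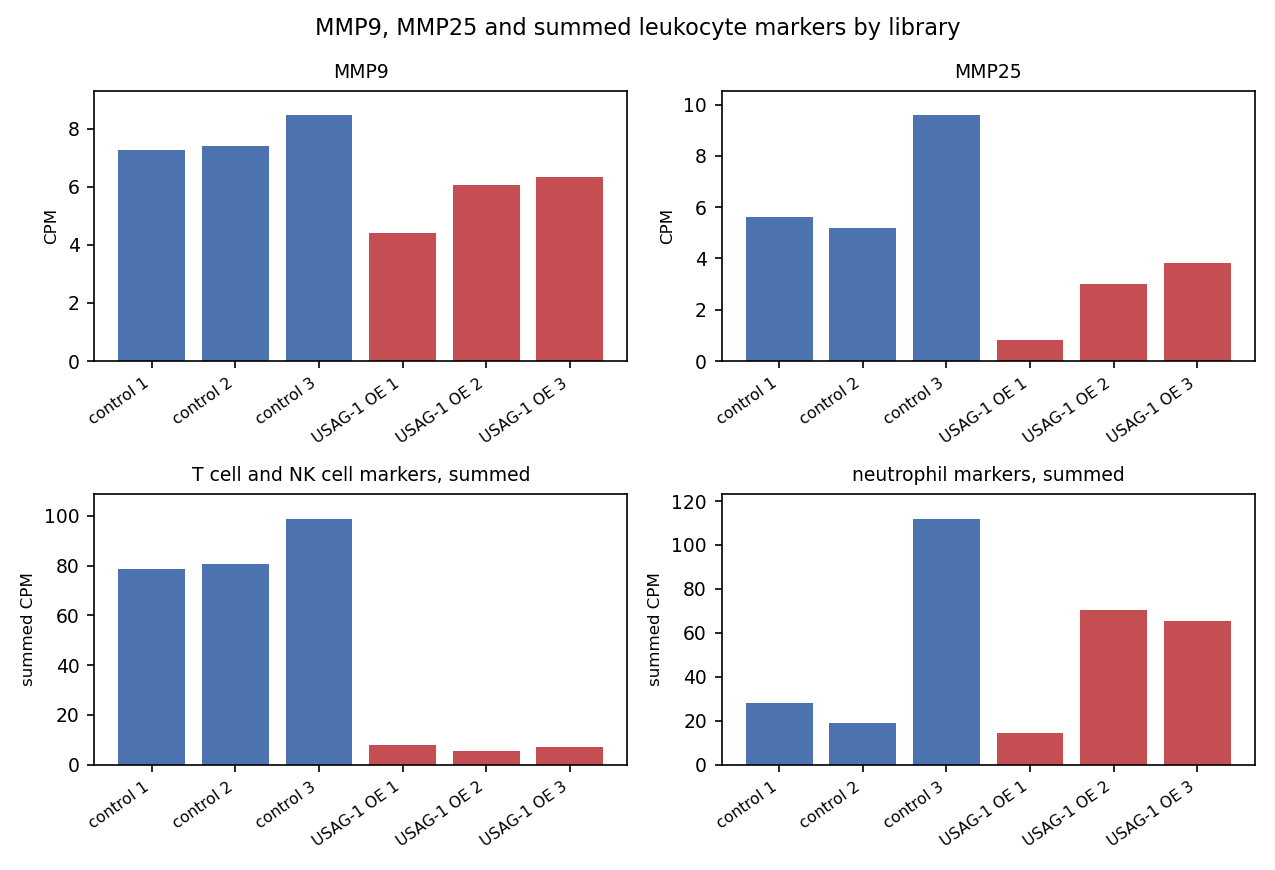
Level in CPM of MMP9 and MMP25 and summed CPM of 12 T cell and NK cell markers and of 9 neutrophil markers (vertical axes, from 0) in each of the 3 control (blue) and 3 USAG-1-overexpressing (red) libraries, 1 bar per library with no error bars. The T cell and NK cell sum is high in the 3 controls alone, whereas the neutrophil sum is highest in control replicate 3, at 112 CPM, and lowest in USAG-1 overexpression replicate 1, at 14.5 CPM.

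Of 10 monocyte and macrophage markers tested, 3 had positive and 7 negative log2 fold changes, beside 8644 and 9544 of all genes tested. Of the 10, 1 was called higher and 2 lower, against 8.95% and 6.91% of all genes tested. The highest CPM was that of CD68 (ENSG00000129226), a lysosomal protein also made by other cells, at 66.9, 62.7 and 92.3 CPM in control and 126, 110.4 and 113 CPM in USAG-1-overexpressing libraries. Its call as higher was lost without control replicate 1 (0.59) or 2 (0.55), and when USAG-1 overexpression replicate 1 (0.60), 2 (0.70) or 3 (0.68) was left out. ITGAM (ENSG00000169896), an integrin gene of myeloid cells, was at 5.01, 4.60 and 3.38 CPM in control and at 2.11, 1.67 and 1.85 CPM in USAG-1-overexpressing libraries, and was called lower (log2 fold change -1.20) here and in all alternatives. LYZ (ENSG00000090382), the lysozyme gene, was at 37.7, 21.8 and 23.3 CPM in control and at 17.6, 14.5 and 17.6 CPM in USAG-1-overexpressing libraries. In both genes the groups were apart, and LYZ was called lower too (log2 fold change -0.73). The LYZ call was lost without control replicate 1 (-0.44) or USAG-1 overexpression replicate 1 (-0.78), 2 (-0.65) or 3 (-0.78), with library sizes alone (-0.72), with limma-voom (-0.69) and when low counts were not filtered (-0.73). Without control replicate 3 the markers called lower numbered 3, beside 2106 of all 18866 genes then tested. The summed level of 6 B cell markers was 7.71, 6.26 and 6.28 CPM in control and 4.66, 4.88 and 7.97 CPM in USAG-1-overexpressing libraries, with the highest CPM in IGHM (ENSG00000211899). That of 5 endothelial markers was 6.23, 7.09 and 4.43 CPM in control and 6.10, 2.93 and 4.24 CPM in USAG-1-overexpressing libraries, led by PECAM1 (ENSG00000261371). Both sums overlapped between the groups. The 7 fibroblast markers in the table summed to 41.6, 42.3 and 41.8 CPM in control and 56.8, 58.9 and 58.4 CPM in USAG-1-overexpressing libraries. LUM held 83.4% of that sum. Of the collagen genes on the list, COL1A2 was listed at 0 in all libraries, and COL3A1 at 0 in all but control replicate 3, with 4 counts. COL1A1 was at 6.30, 6.04 and 7.15 CPM in control and at 7.51, 6.76 and 6.44 CPM in USAG-1-overexpressing libraries, where the groups overlapped.

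MMP19 (ENSG00000123342; chromosome 12, 55835433 to 55842966), a widely expressed MMP outside the main subgroups, was at 2.85, 2.88 and 2.84 CPM in control and at 3.16, 3.89 and 3.92 CPM in USAG-1-overexpressing libraries. All libraries with overexpression were above the controls, and the difference was not called (log2 fold change 0.36, adjusted p = 0.192, edgeR quasi-likelihood test after Benjamini-Hochberg adjustment). MMP19 overlaps TMEM198B on the other strand, so its counting is uncertain. Over all libraries TMEM198B had 1003 counts against 866 for MMP19, and with all libraries it was called lower (log2 fold change -0.92), opposite in sign to MMP19. A further 8 members were tested at a mean under 1 CPM, namely 4 MMP and 4 ADAMTS genes, among them MMP13 and ADAMTS13. Their log2 fold changes ran from -1.01 to 0.88, and the smallest adjusted p was 0.209 (edgeR quasi-likelihood test after Benjamini-Hochberg adjustment). At such depth only large changes could have been detected. Of the 16 members not tested, 12 had some count, up to 17 in a library, and 4 were listed at 0 in every library. Summed over the 20 MMP genes the level was 392, 401 and 434 CPM in control and 402, 407 and 405 CPM in USAG-1-overexpressing libraries, and the groups overlapped.

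MMPs and TIMPs work with proteinases and inhibitors that activate or clear them, and of 16 such genes tested 3 were called higher and 4 lower, against 8.95% and 6.91% of all genes tested. The number called lower was 2 without control replicate 1 or USAG-1 overexpression replicate 1 or 2, and the number called higher was 2 when any library but control replicate 3 was left out, and 4 without that one. Over the same fits the share of all genes called in either direction ran from 5.98% without USAG-1 overexpression replicate 2 to 27.0% without control replicate 3. THBS2 (ENSG00000186340), a matricellular protein that promotes clearance of MMP2, was at 73.0, 68.8 and 78.5 CPM in control and at 150.3, 158 and 164 CPM in USAG-1-overexpressing libraries and rose 2.14-fold (log2 fold change 1.099, adjusted p = 1.07e-04, edgeR quasi-likelihood test after Benjamini-Hochberg adjustment). SERPINE2 (ENSG00000135919), an inhibitor of thrombin and urokinase, was at 120.1, 125 and 131 CPM in control and at 161, 165 and 162 CPM in USAG-1-overexpressing libraries (log2 fold change 0.38). LCN2 (ENSG00000148346), a marker of tubular injury whose product binds MMP9, was at 8.19, 7.66 and 9.94 CPM in control and at 4.90, 3.30 and 4.12 CPM in USAG-1-overexpressing libraries (log2 fold change -1.06). It is abundant in neutrophils too. Control replicate 3, the library with the highest neutrophil sum, had the highest LCN2 level, whereas with overexpression LCN2 was highest in replicate 1, where that sum was lowest, and lowest in replicate 2, where it was highest of the group. The part of neutrophil RNA in the difference was not tested.

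SPOCK2 (ENSG00000107742), a testican proteoglycan, was at 3.02, 2.39 and 3.75 CPM in control and at 1.37, 1.28 and 1.71 CPM in USAG-1-overexpressing libraries (log2 fold change -1.07). Its call was lost without control replicate 1 (-1.07) and with USAG-1 overexpression replicate 1 (-1.02) or 2 (-0.98) left out. The smallest of these changes were in PLAT and LRP1. PLAT (ENSG00000104368), tissue plasminogen activator, was at 107, 101 and 109 CPM in control and at 83.7, 93.4 and 88.7 CPM in USAG-1-overexpressing libraries (log2 fold change -0.26). LRP1 (ENSG00000123384), an endocytic receptor that clears MMPs, ADAMTS enzymes and TIMPs, was at 105, 109 and 108 CPM in control and at 119, 129 and 126 CPM in USAG-1-overexpressing libraries (log2 fold change 0.22). Neither call held without control replicate 1 or 2 or USAG-1 overexpression replicate 1, 2 or 3, where the log2 fold change was -0.25, -0.29, -0.21, -0.29 and -0.25 for PLAT and 0.21, 0.23, 0.25, 0.20 and 0.22 for LRP1 in that order.

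Among 14 related metalloproteinases and ADAMTS-like matrix proteins tested, 1 was called higher and 0 lower, against 8.95% and 6.91% of all genes tested. ADAM10 (ENSG00000137845), a sheddase of cell-surface proteins, was at 168, 166 and 153 CPM in control and at 201, 194 and 190.2 CPM in USAG-1-overexpressing libraries (log2 fold change 0.27, adjusted p = 0.0208, edgeR quasi-likelihood test after Benjamini-Hochberg adjustment). It was not called without control replicate 2 (0.28) or when USAG-1 overexpression replicate 1 (0.25), 2 (0.27) or 3 (0.29) was left out, and 0 of the list were then called. Without control replicate 3, 2 were called higher and 2 lower, beside 2985 and 2106 of all 18866 genes then tested. BMP1 (ENSG00000168487), which removes the carboxy-terminal propeptide of procollagen, was at 171, 176 and 159 CPM in control and at 145, 140.0 and 152 CPM in USAG-1-overexpressing libraries, just short of the threshold (log2 fold change -0.21, adjusted p = 0.0547, edgeR quasi-likelihood test after Benjamini-Hochberg adjustment). BMP1 was called lower without control replicate 3 (-0.25), by DESeq2's Wald test (-0.21) and among genes with at least 10 counts in every library (-0.22). ADAM22 (ENSG00000008277), a catalytically inactive neuronal receptor, had a log2 fold change of -0.35 and was called lower only without control replicate 3 (-0.43). ADAM9 (ENSG00000168615), a membrane sheddase, had one of 0.33 and was called in none of the alternatives. The enzymes at the amino-terminal and carboxy-terminal ends of procollagen, ADAMTS3 and BMP1, thus had log2 fold changes of opposite sign, of which the first was called.

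Of 11 proteoglycan and glycoprotein substrates tested, 4 were called higher and 1 lower, against 8.95% and 6.91% of all genes tested. TNC (ENSG00000041982), tenascin-C, was at 299.9, 310.4 and 288 CPM in control and at 188, 197 and 199 CPM in USAG-1-overexpressing libraries and fell (log2 fold change -0.62, adjusted p = 5.67e-04, edgeR quasi-likelihood test after Benjamini-Hochberg adjustment). LUM (ENSG00000139329), the small proteoglycan lumican, was at 33.2, 34.6 and 33.0 CPM in control and at 48.0, 50.3 and 51.0 CPM in USAG-1-overexpressing libraries (log2 fold change 0.57). FN1 (ENSG00000115414), fibronectin, was at 12828, 12582 and 12149 CPM in control and at 15856, 16726 and 15512 CPM in USAG-1-overexpressing libraries (log2 fold change 0.36). In each of these genes the groups were apart. FBN1 (ENSG00000166147), the microfibril protein fibrillin, was at 44.0, 42.3 and 40.5 CPM in control and at 56.7, 64.1 and 58.7 CPM in USAG-1-overexpressing libraries (log2 fold change 0.50). NID1 (ENSG00000116962), the basement membrane linker nidogen, was at 358, 364 and 382 CPM in control and at 461, 479.7 and 456 CPM in USAG-1-overexpressing libraries (log2 fold change 0.34). All 5 calls held in the 15 alternatives. Without control replicate 3, 5 of the list were called higher and 2 lower, beside 2985 and 2106 of all 18866 genes then tested. The gene of versican, which ADAMTS1, ADAMTS9 and ADAMTS15 cleave, was not called. VCAN (ENSG00000038427) was at 602, 584 and 416 CPM in control and at 616, 634 and 596 CPM in USAG-1-overexpressing libraries, and control replicate 3 was the lowest (95% interval of the log2 fold change -0.09 to 0.49).

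Transcription factors of the AP-1 and ETS families bind promoters of many MMP genes, and 14 such genes were tested together with RUNX2, a Runt-domain factor that acts with AP-1 at the MMP13 promoter. Of the 14, 4 were called higher and 0 lower, against 8.95% and 6.91% of all genes tested. ETV1, ETV4 and ETV5, which form the PEA3 subfamily of ETS factors, rose together. ETV1 (ENSG00000006468) was at 18.2, 19.1 and 16.3 CPM in control and at 38.0, 42.7 and 36.0 CPM in USAG-1-overexpressing libraries (log2 fold change 1.12, adjusted p = 4.41e-04, edgeR quasi-likelihood test after Benjamini-Hochberg adjustment). ETV5 (ENSG00000244405) was at 46.5, 50.0 and 51.0 CPM in control and at 81.7, 80.6 and 80.4 CPM in USAG-1-overexpressing libraries (log2 fold change 0.72). ETV4 (ENSG00000175832) was at 20.9, 18.9 and 21.4 CPM in control and at 26.6, 28.4 and 27.6 CPM in USAG-1-overexpressing libraries (log2 fold change 0.43). The ETV4 call was lost without USAG-1 overexpression replicate 2 (0.41). JUN (ENSG00000177606), an AP-1 subunit, rose as well, from 157, 165 and 169 CPM in control to 232, 262 and 252 CPM in USAG-1-overexpressing libraries (log2 fold change 0.60). RUNX2 (ENSG00000124813) was at 117, 120.4 and 97.0 CPM in control and at 75.6, 78.9 and 76.0 CPM in USAG-1-overexpressing libraries and fell (log2 fold change -0.54, adjusted p = 0.00546, edgeR quasi-likelihood test after Benjamini-Hochberg adjustment). Over the 4 lists of partners, substrates and factors together, 12 of 56 genes tested were called higher and 6 lower, against 8.95% and 6.91% of all genes tested.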

How the data were processed

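The 3 control and 3 USAG-1-overexpressing samples of HK-2 cells were grouped by their labels. The authors deposited 1 table of whole-number counts per gene without normalization, whose name speaks of FPKM. Per the labels, reads were paired and the second strand was removed with UDG. The submitters' processing notes name cutadapt 1.9, FastQC and hg38, and the aligner, counting tool and strand setting are not given in the sources used here. Genes of low count were removed with filterByExpr, and the rest scaled by TMM and tested with the quasi-likelihood test of edgeR 4.0.16 (R 4.3.3), without a replicate block. The Benjamini-Hochberg adjustment ran over all 18188 genes tested, and genes were called at an adjusted p under 0.05 and any fold change. The genes tested held 99.9% or more of the counts in each library. Standard errors were obtained by dividing the log2 fold change by the square root of F. Libraries of the same group were not copies of each other (chi-square per degree of freedom at least 6.52). Control replicate 3 stood apart, at 42.3 and 42.7 against the other controls, where no other pair passed 8.35. The code was tested on simulated data.

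Named are SOSTDC1, ADAMTS1, every member called or with a mean of at least 1 CPM, other members where a count is 5 or fewer, the 4 genes with the smallest p and any other called gene of 4 lists (activation and control, related metalloproteinases, substrates, AP-1 and ETS factors), and the gene with the highest CPM of 8 marker lists. VCAN, PAX8, CDH6, ITGAM, LYZ, COL1A1 and the marker genes at or near 0, as well as antisense and overlapping genes, were named outside this rule with their values known. A planned reading of member protein and promoter sequences was not done, since the reference sequences at hand were of mouse. Of the genes that this rule names, 1 is not reported here. Members and lists were chosen with earlier results of these data known. MMP12, MMP26 and ADAMTS19 were not analysed here. Alternatives were DESeq2 1.42.0 size factors, no scaling beyond library size, the Wald test of DESeq2 with its own size factors and independent filtering on all 32507 genes with a count, limma-voom (limma 3.58.1), no filter, a minimum of 10 counts in all libraries, replicate as a block, mitochondrially encoded genes or SOSTDC1 left out, and each library left out.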

Additional observations from a re-analysis of the deposited data

How the results depend on the processing

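The calls of MMP7, ADAMTS3, ADAMTS9, ADAMTS15 and TIMP2 held in all 15 alternatives, and those of MMP24, ADAMTS1 and ADAMTS16 did not. Of the 8 calls, 8 were shared with the main analysis under both other scalings, DESeq2's Wald test, limma-voom, a minimum of 10 counts in every library and with mitochondrially encoded genes or SOSTDC1 left out. Without the filter on low counts 4 members were called higher, against 7. The number called lower was 2, against 1, in the DESeq2 run, which differs in scaling, filter and test at once, and with at least 10 counts in every library. ADAMTS6 was the gene gained in both. With 1 library left out, members called higher ranged from 4 to 8 and lower from 1 to 2, genes of the 4 lists called higher from 9 to 16 and lower from 4 to 9, and all differentially expressed genes from 1137 to 5091, against 2884 with all libraries. The highest of these was without control replicate 3, which stood apart from the other controls. The median log2 fold change of the members tested lay between -0.07 and 0.04 over the alternatives and changed sign in some. VIM, at -0.01 with all libraries, was at -0.0694 without control replicate 2 and was called higher at 0.11 without control replicate 3, and the cause was not tested.

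The replicate numbers were not taken to pair the samples, since deviations from the group mean correlated at 0.07, -0.05 and 0.04 between same-numbered libraries, and not every library correlated best with its own number. With a replicate block, 2381 genes were called, with 5 members higher and 2 lower, as ADAMTS1 (0.21), ADAMTS16 (0.45), PLAT (-0.26) and LRP1 (0.22) were not called and MMP25 was (-1.58). Without the filter, LRP1 (0.22) was not called either. With 3 libraries in each group, members under 1 CPM were too shallow for small changes to be detected.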

Other observations

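Genes of the table whose names start like the members but that the symbol rule leaves out were read in the same fit. MMP23B and MMP23A, neighbouring copies of an MMP gene on chromosome 1, were at 0.311, 0.304 and 0.328 CPM and 0.503, 0.344 and 0.211 CPM in control libraries. In USAG-1-overexpressing libraries they were at 0.370, 0.458 and 0.278 CPM and 0.457, 0.458 and 0.232 CPM, and the groups overlapped in both. How the authors' counting handled reads shared by such copies is not given in the sources used here, so their levels are uncertain. ADAMTS9-AS2, an antisense gene at the ADAMTS9 locus, was at 3.35, 3.47 and 3.96 CPM in control and at 3.42, 3.43 and 3.43 CPM in USAG-1-overexpressing libraries, so it did not move beside the rise of ADAMTS9 beyond the spread of the controls. ADAMTS9-AS1 was at 0.766, 1.16 and 0.915 CPM in control and at 0.653, 1.03 and 0.510 CPM in USAG-1-overexpressing libraries. The ADAMTS7 pseudogene copies and the antisense genes at ADAMTSL4 had too few counts to be tested. The 37 mitochondrially encoded genes, for scale, summed to 55228, 54055 and 50246 CPM in control and to 15338, 15094 and 15322 CPM in USAG-1-overexpressing libraries, and leaving them out changed no call of a member.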
